A study of Mus musculus with 2 samples.

Results

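The proteasome genes described here are those whose array name begins with Psma, Psmb, Psmc, Psmd, Psme, Psmf or Psmg and a number. The array carried 49 such names on 79 probes, of 41174 probes in all, and 48 of the genes and 72 of the probes were measured, of 17162 genes and 25440 probes measured in all. A probe counted as measured where it stood well above background on both arrays in at least 1 diet. The rule sets 5 immune members, the subunits Psmb8, Psmb9 and Psmb10 and the activators Psme1 and Psme2, against 42 measured constitutive members. The remaining match, Psmc3ip, shares letters with a proteasome subunit but encodes a factor of meiotic recombination, so it is given by itself and counted with neither set. Psmb11, the core subunit of thymic epithelium, was the name that was not measured, since neither of its probes stood well above background in either diet.

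The tissue was small intestine, taken for total RNA from C57BL/6 mice that were 6 to 8 weeks old. The control mice ate conventional chow (Conv), and the other mice a food antigen-free diet (FAF) in which amino acids took the place of protein, held for as many as 5 generations. The labels name specific-pathogen-free and germ-free mice without saying which gave the RNA, and they do not say whether a sample is 1 mouse or a pool. The same 2 RNA samples, 1 per diet, were hybridised to 2 Agilent whole mouse genome two-colour arrays with the dyes exchanged, a design that sets intestinal transcripts of the diets side by side and leaves no spread between mice and no test. Each value below is a log2 ratio of FAF over Conv, the mean of the arrays, and the ± gives the distance of either array from that mean, which holds dye and hybridisation error alone. Levels are log2 intensities, and values from both arrays are given first for the array with FAF in Cy5 and then for the array with FAF in Cy3. In bulk tissue, fewer cells of a type and less RNA per cell cannot be told apart. All 11 epithelial markers looked for, among them the villus genes Vil1, Fabp2 and Alpi, were measured.

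The proteasome is the large protease that breaks down proteins tagged with ubiquitin. Its barrel-shaped core is built of rings of alpha subunits, which form the gate, around rings of beta subunits, of which a few carry the proteolytic sites. A regulatory particle caps the core, binds and unfolds the tagged protein and feeds it in. Interferon gamma induces other catalytic subunits (Psmb8, Psmb9 and Psmb10, also called LMP7, LMP2 and MECL-1), which take the places of Psmb5, Psmb6 and Psmb7 in newly built cores. The resulting immunoproteasome, often with the activator PA28 (Psme1 and Psme2), yields many of the peptides shown on MHC class I molecules, and it is plentiful in leukocytes and present in gut epithelium.

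Most proteasome genes had a slightly lower signal in FAF, and the immune catalytic subunits Psmb9 and Psmb8 were the furthest below. Of the 48 genes, 40 had a ratio under 0 on both arrays and 5 a ratio above 0 on both, where 39.4% and 38.7% of all measured genes did so. The median of the 48 was -0.30, against -0.00095 over all measured genes. The size was small. By a strict rule of size, at least 2-fold in the mean and at least 1.5-fold on each array, 1 member was lower (Psmb9) and 0 were higher, and 0.88% of all genes were lower and 1.53% higher. By a looser rule, at least 1.5-fold in the mean with both arrays the same way, 3 members were lower (Psmb9, Psmb8 and Psmg3) and 0 were higher, where 3.59% of all genes were lower and 4.52% higher. Most members belong to the 5846 genes with a mean log2 intensity of at least 10, which passed the rules more often. Of these genes, 82 were lower and 160 higher by the strict rule, and 296 were lower and 420 higher by the looser rule. The signs on single arrays needed the intensity-dependent dye trend to be removed: with the arrays only centred on their median, 3 members lay under 0 on both arrays, and 10.9% of all genes did, while the median of the members was -0.25.

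**Figure D1:**
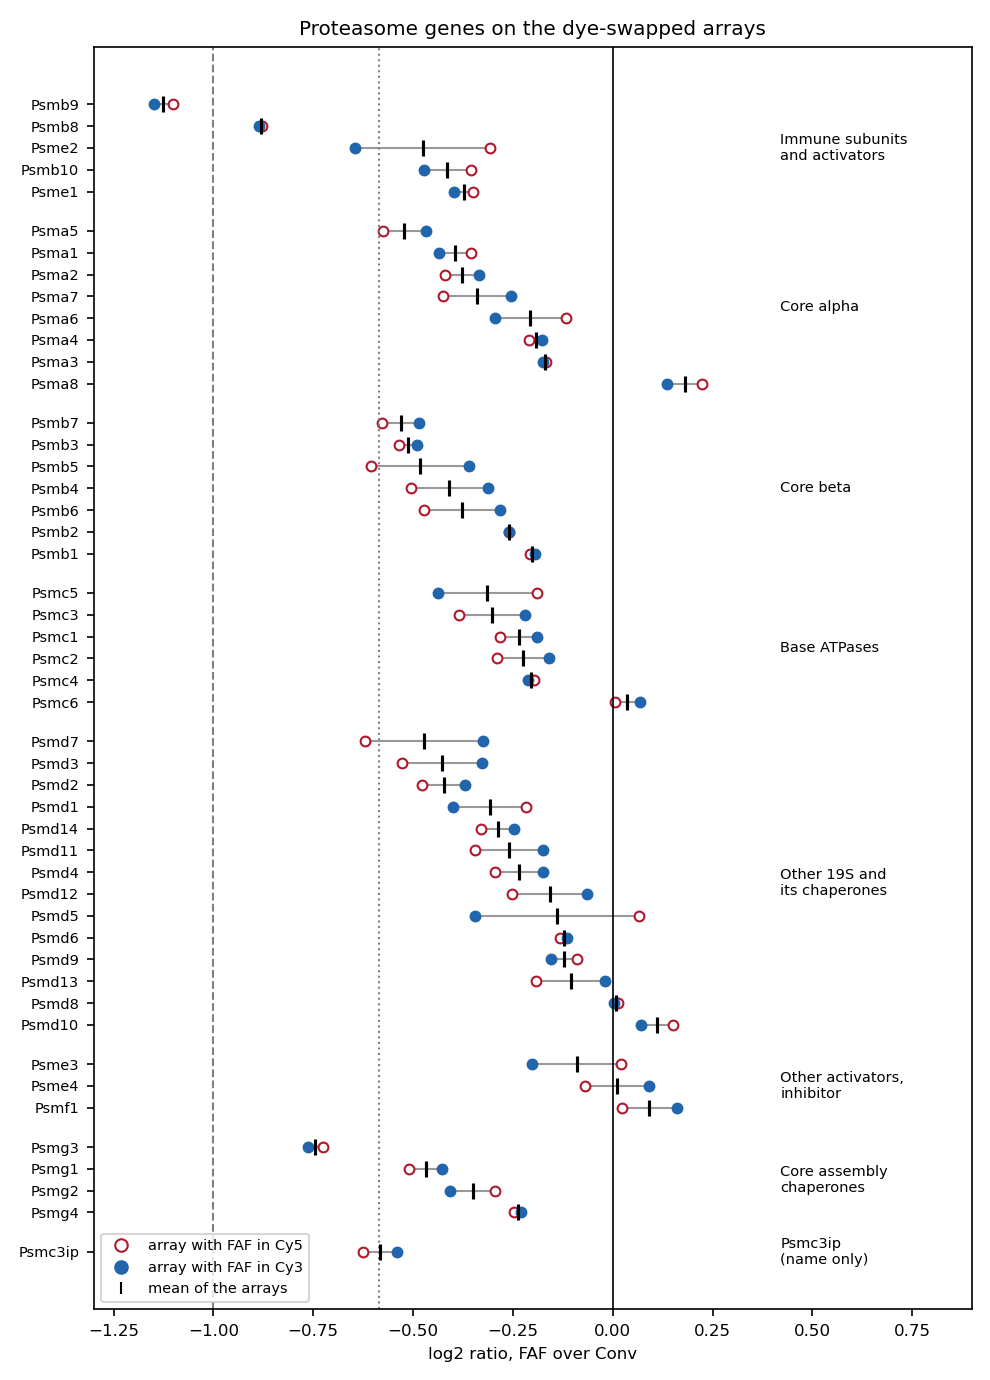
Log2 ratio of FAF over Conv of each of the 48 measured proteasome genes, with open circles for the array with FAF in Cy5, filled circles for the array with FAF in Cy3 and a bar for their mean. The dashed line marks 2-fold and the dotted line 1.5-fold lower in FAF, and Psmb9, Psmb8 and Psmg3 are the genes whose mean lies past the dotted line.

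Psmb9, the immune subunit that replaces Psmb6, had a level of 13.89 and 13.82 in Conv and of 12.79 and 12.67 in FAF. The ratio was -1.13 ± 0.02, or 2.18-fold lower. It was the lowest of all proteasome genes, and 104 of the 17162 genes had a lower ratio. Psmb8, which replaces Psmb5, had a level of 13.91 and 13.84 in Conv and of 13.03 and 12.95 in FAF. Its ratio was -0.88 ± 0.0029, or 1.84-fold lower, its other probe gave -0.87, and 217 genes had a lower ratio. These genes thus passed the looser rule on each array taken alone, with ratios of -1.10 and -1.15 for Psmb9 and -0.88 and -0.88 for Psmb8.

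The other immune members did not pass either rule. Psmb10, which replaces Psmb7, had a level of 15.49 and 15.53 in Conv and of 15.13 and 15.05 in FAF, a ratio of -0.41 ± 0.06. The ratio was under 0 on both arrays, as it was for 39.4% of all measured genes, and it stood among those of the constitutive subunits. Psme1, the alpha subunit of PA28, had 14.75 and 14.78 in Conv and 14.40 and 14.38 in FAF, a ratio of -0.37 ± 0.02. Psme2, its beta subunit, had 15.80 and 16.02 in Conv and 15.49 and 15.37 in FAF, a ratio of -0.48 ± 0.17, and its other probe gave -0.40. The arrays differed more for Psme2 than for any other immune member, at -0.31 and -0.65, and the second of these would have passed 1.5-fold alone. Of the 42 constitutive members, 0 had a lower ratio than Psmb8 or Psmb9, 5 had one lower than Psme2, 9 lower than Psmb10 and 13 lower than Psme1.

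**Figure D2:**
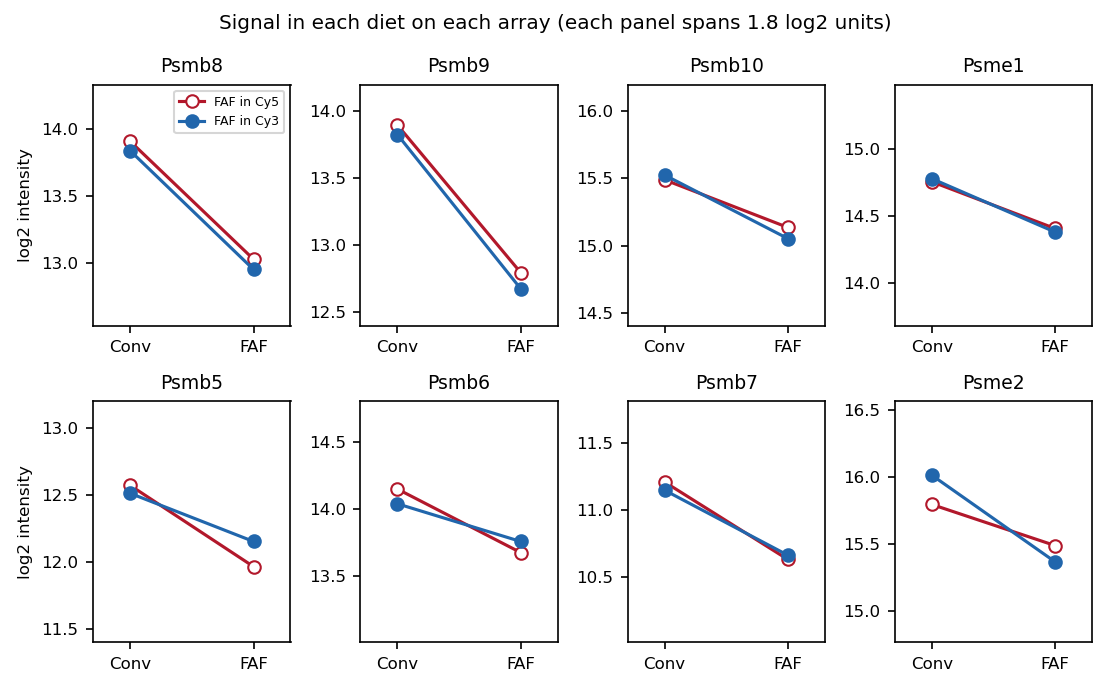
Log2 intensity in Conv and FAF of the 5 immune members and of Psmb5, Psmb6 and Psmb7, the catalytic subunits that the immune ones replace, with a line for each array. Levels of different genes come from different probes and cannot be compared, so each panel has its own position on the axis but spans the same number of log2 units. The lines of Psmb8 and Psmb9 are the steepest. In each panel both lines fall from Conv to FAF, as they would for 39.4% of all measured genes.

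The catalytic subunits are related proteins, so the array probes of each immune subunit and of its constitutive partner were compared for shared bases. The 60-base probes of each pair are given from 5′ to 3′ with the longest run of bases that the pair shares in capitals, and they are read from the array files. For Psmb8 the probe shown is the one that gave -0.87, because its best local alignment with the Psmb5 probe was longer, at 32 bases against 8 for the other Psmb8 probe.
Psmb8: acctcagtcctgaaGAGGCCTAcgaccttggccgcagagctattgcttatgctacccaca
Psmb5: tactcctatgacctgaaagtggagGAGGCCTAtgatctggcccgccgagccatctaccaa
Psmb9: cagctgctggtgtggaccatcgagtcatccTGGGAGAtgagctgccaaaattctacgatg
Psmb6: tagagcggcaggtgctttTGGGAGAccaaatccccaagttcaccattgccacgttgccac
Psmb10: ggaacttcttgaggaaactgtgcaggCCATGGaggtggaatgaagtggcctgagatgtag
Psmb7: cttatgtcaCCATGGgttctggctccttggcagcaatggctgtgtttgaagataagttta
The shared run was 8 bases for Psmb8 and Psmb5, 7 for Psmb9 and Psmb6 and 6 for Psmb10 and Psmb7. The best local alignment of the Psmb8 and Psmb5 probes had 25 identical bases of 32, and that of Psmb9 and Psmb6 16 of 23. Over the 3043 pairs of probes of different proteasome genes, the longest shared run was 12 bases. The array files place the probes in mouse build mm9, at chr17:34337771-34337830 (plus strand) for Psmb8, chr14:55233161-55233220 (minus strand) for Psmb5, chr17:34319174-34319233 (minus) for Psmb9, chr11:70341014-70341073 (plus) for Psmb6 and chr8:108459677-108459736 (minus) for Psmb10. The Psmb7 probe, at chr2:38468966-38489385 (minus), spans far more than its own 60 bases of genome, so it lies across at least 1 splice junction. Gene models of that build were not used here, so the exon or UTR each probe lies in is not given.

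Psmb9 and Psmb8 are neighbours in the MHC on chromosome 17, and Psmb9 shares its promoter with Tap1, which runs the other way. In the RefSeq annotation of GRCm38.p6 the start sites of Psmb9 and Tap1 lie 226 bases apart. The sequence between them, and the 250 bases before the start of Psmb8, are shown because these are the members whose ratio was furthest below 0. Each reads 5′ to 3′ on the strand of the Psmb gene, with motif matches in capitals.
Psmb9 to Tap1, chr17:34187331-34187555, minus strand: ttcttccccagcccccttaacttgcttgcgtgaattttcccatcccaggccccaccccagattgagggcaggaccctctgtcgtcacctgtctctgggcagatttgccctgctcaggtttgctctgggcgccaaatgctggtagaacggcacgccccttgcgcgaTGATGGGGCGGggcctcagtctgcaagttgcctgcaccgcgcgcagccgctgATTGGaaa
Psmb8, chr17:34197945-34198194, plus strand: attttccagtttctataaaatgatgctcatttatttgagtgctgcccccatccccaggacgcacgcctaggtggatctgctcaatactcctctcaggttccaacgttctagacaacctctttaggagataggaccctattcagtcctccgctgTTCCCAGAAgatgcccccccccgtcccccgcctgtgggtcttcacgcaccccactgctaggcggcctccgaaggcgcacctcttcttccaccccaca
The motifs were searched on both strands, with N for any base. They were the interferon-stimulated response element (TTTC, any 2 bases, TTTC), the gamma-activated site (TTCNNNGAA), the antioxidant response element (TGANNNNGC), the CCAAT box (CCAAT) and the GC box (GGGCGG). Between Psmb9 and Tap1 the capitals mark a match to the loose antioxidant letters, TGATGGGGC, which overlaps a GC box, GGGCGG. They also mark a CCAAT box read on the other strand, ATTGG. Before Psmb8 they mark a gamma-activated site, TTCCCAGAA, at position -97 from the start, and the Psmb8 window also held an antioxidant element, TGATGTGGC, at position 24, past the bases printed. Such letters are common in promoters: in windows of 250 bases before to 50 after the start, 3.44% of 32851 RefSeq promoters held the interferon-stimulated element, 8.3% the gamma-activated site, 41.3% the antioxidant element, 37.4% the CCAAT box and 35.7% the GC box. Among the immune members, 1 of 5 held the interferon-stimulated element (Psme1, at position 10, TTTCGCTTTC), and 1 of 5 the gamma-activated site (Psmb8). Of the 34 constitutive members with a window in the table, 4 held the interferon-stimulated element and 2 the gamma-activated site. The antioxidant element was found in 3 of 5 immune and 19 of 34 constitutive members, the CCAAT box in 1 of 5 and 12 of 34, and the GC box in 3 of 5 and 20 of 34. A match is a match of letters in this window and shows no binding. A window without a match may still hold a site of other letters, or have one outside it.

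Set against the subunit it replaces, Psmb9 differed most. On the same arrays the ratio of Psmb9 minus that of Psmb6 was -0.75 ± 0.12, with -0.63 and -0.87 on the arrays, from 2.18-fold lower for Psmb9 and 1.3-fold lower for Psmb6. Psmb8 lay below Psmb5 by a smaller amount (-0.40 ± 0.13, with -0.27 and -0.53). Psmb10 did not lie below Psmb7, at a difference of 0.12 ± 0.11 (0.22 and 0.01). The difference of the medians, immune minus constitutive, was -0.23, but it was -0.085 on the array with FAF in Cy5 and -0.41 on the array with FAF in Cy3. Against the 14 core subunits alone, leaving out Psma8, the difference was -0.10, and its sign differed between the arrays, at 0.07 and -0.34. The size of the difference between the sets thus depended on the array, whereas Psmb8 and Psmb9 lay below all 42 constitutive members on each array.

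**Figure D3:**
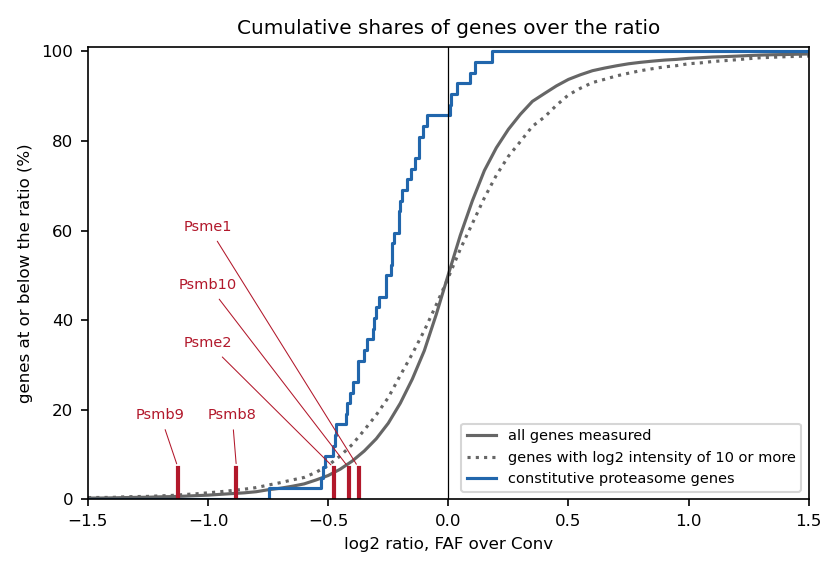
Share of genes at or below each log2 ratio of FAF over Conv, for the 42 constitutive proteasome genes (blue steps), all 17162 measured genes (grey) and the 5846 measured genes with a mean log2 intensity of 10 or more (dotted), with red marks for the 5 immune members. The blue steps lie to the left of both grey lines over most of their range, with a median of -0.25 against -0.00095 for all genes, and only the marks of Psmb8 and Psmb9 stand to the left of every blue step.

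The constitutive members lay in a narrow band somewhat under 0. Their median ratio was -0.25, the middle 50% lay between -0.39 and -0.14, and the range was -0.74 to 0.18. Under 0 on both arrays were 34 of 42, and 5 were above 0 on both. The 31 Psm-named subunits of the complete particle (core and regulatory cap, a set chosen after seeing the data) had a median of -0.29, and 29 of them lay under 0 on both arrays. The technical SD of 1 array over all genes was 0.12. Most members were bright, and the 5846 bright genes, with a mean log2 intensity of at least 10, had a median of 0.0030, with 2430 under 0 and 2437 above 0 on both arrays. Across the 48 members brighter probes had lower ratios, with a Spearman correlation of -0.41, given as a description over probes that share the arrays.

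All 14 subunits of the core, Psma1 to Psma7 and Psmb1 to Psmb7, lay under 0 on both arrays, with a median of -0.38. Among the alpha subunits, which form the outer rings and the gate, Psma5 was lowest, with a level of 14.52 and 14.36 in Conv and of 13.95 and 13.89 in FAF and a ratio of -0.52 ± 0.05. Psma1 followed at -0.40 ± 0.04, Psma2 at -0.38, Psma7 at -0.34, Psma6 at -0.21 and Psma4 at -0.19. Psma3 stood closest to 0 of these, at -0.17 ± 0.0042. The other probe of Psma7 gave 0.07, a range of 0.405 between probes, which was the widest among the 20 members with several measured probes. Psma8, an alpha subunit of testis, was the exception, at 0.18 ± 0.04, with a level of 6.33 and 6.36 in Conv and 6.55 and 6.50 in FAF. It was dim enough that its ratio changed with the background correction, to 0.37 with an offset of 10.

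Among the beta subunits the catalytic Psmb7 was lowest, with 11.21 and 11.15 in Conv and 10.63 and 10.66 in FAF, a ratio of -0.53 ± 0.05. Psmb3, a structural subunit, gave -0.51 ± 0.02. The catalytic Psmb5 had 12.57 and 12.51 in Conv and 11.97 and 12.15 in FAF, a ratio of -0.48 ± 0.12, and with only the array that had FAF in Cy5 it would have passed the looser rule. The third catalytic subunit, Psmb6, had 14.15 and 14.04 in Conv and 13.68 and 13.76 in FAF, a ratio of -0.38 ± 0.10. The levels in FAF were below those in Conv on both arrays for all 3 catalytic subunits, as they were for 39.4% of all measured genes. Of the other structural subunits Psmb4 gave -0.41 ± 0.10, Psmb2 -0.26 ± 0.00064 and Psmb1 -0.20 ± 0.0059.

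Of the 17 measured Psm-named subunits of the regulatory cap, 15 lay under 0 on both arrays, and the median was -0.24, beside -0.38 for the core. The Psmc genes encode the ring of ATPases that unfolds the substrate, with a median of -0.23. Psmc5 was lowest at -0.31 ± 0.12 and Psmc3 next at -0.30 ± 0.08. Psmc1 gave -0.24, Psmc2 -0.22 and Psmc4 -0.20, and the other probe of Psmc2 gave 0.11. Psmc6 was highest, with 13.20 and 13.26 in Conv and 13.20 and 13.33 in FAF, a ratio of 0.04 ± 0.03.

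The non-ATPase subunits in the base and lid of the cap hold the scaffold and the ubiquitin receptors and deubiquitinase. Psmd7, the partner of the deubiquitinase Psmd14, was lowest, with 11.54 and 11.42 in Conv and 10.92 and 11.10 in FAF, a ratio of -0.47 ± 0.15. Its arrays differed, at -0.62 and -0.33, and it passed 1.5-fold on the first of these alone. Its other probes ranged from -0.50 to -0.20. Psmd3 gave -0.43 ± 0.10, and the scaffold subunits Psmd2 and Psmd1 gave -0.42 ± 0.05 and -0.31 ± 0.09. The deubiquitinase Psmd14 itself gave -0.29 ± 0.04, and Psmd11 gave -0.26 ± 0.09. Psmd4, a ubiquitin receptor, gave -0.23 ± 0.06, with 0.08 on its other probe. Nearest to 0 were Psmd12 at -0.16, Psmd6 at -0.12, Psmd13 at -0.10 and Psmd8 at 0.0082 ± 0.006. Psmd8 had 11.20 and 11.15 in Conv and 11.22 and 11.15 in FAF; the diets overlapped.

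The assembly factors were of separate kinds. Psmd5, Psmd9 and Psmd10 are chaperones that help to build the base of the cap and are not part of the finished particle. Psmd9 gave -0.12 ± 0.03 and Psmd10, also called gankyrin, 0.11 ± 0.04, while Psmd5 gave -0.14 ± 0.21 with opposite signs on the arrays (0.07 and -0.34). The Psmg genes encode the chaperones that assemble the core, and all 4 lay under 0 on both arrays, with a median of -0.41. Psmg3 was the lowest of all constitutive members, with 11.42 and 11.31 in Conv and 10.70 and 10.55 in FAF. The ratio was -0.74 ± 0.02, or 1.68-fold lower. Psmg1 gave -0.47 ± 0.04, Psmg2 -0.35 ± 0.06 and Psmg4 -0.24 ± 0.009.

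The activators and the inhibitor outside the immune set lay close to 0 on either side. Psme3, the nuclear activator PA28 gamma, gave -0.09 ± 0.11, with 0.02 and -0.20 on the arrays. Psme4, the activator PA200, had 13.47 and 13.42 in Conv and 13.40 and 13.51 in FAF, a ratio of 0.01 ± 0.08. Psmf1, the inhibitor PI31, gave 0.09 ± 0.07, and the other of its probes that was well above background in both diets gave -0.18. The median of these 3 was 0.011, and 0 of them lay under 0 on both arrays. Psmc3ip, the gene that matches by its name alone, gave -0.58 ± 0.04, or 1.5-fold lower after rounding, just short of the looser rule. It passed that rule without background correction, with an offset of 10 and in the software's own log ratio, at -0.64, -0.71 and -0.80.

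Several other genes of the pathway were read from lists of the proteasome's partners. Of 29 regulators, assembly factors and shuttle factors, 28 were measured. Their median was -0.06, with 1 lower and 1 higher by the looser rule. The lower was Ubd, the interferon-inducible ubiquitin-like modifier FAT10, which sends proteins to the proteasome without ubiquitin. Ubd had 11.78 and 11.87 in Conv and 9.11 and 9.08 in FAF, a ratio of -2.73 ± 0.05, or 6.65-fold lower, and it was much further below 0 than any proteasome gene. The higher was Nfe2l2, the factor NRF2 that binds the antioxidant response element, at 0.69 ± 0.02, or 1.62-fold higher; with the arrays only centred on their median it did not pass. Nfe2l1, or NRF1, which drives the recovery of proteasome subunits after inhibition, gave -0.18 ± 0.006. Pomp, the chaperone that matures the core, gave -0.29 ± 0.06, and the deubiquitinase Usp14 gave -0.37 ± 0.03.

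Of 12 genes that supply peptides to MHC class I, 10 were measured (H2-D1 and Nlrc5 were not), with a median of -0.25 and 1 lower by the looser rule. That gene was Tap1, a chain of the peptide transporter, which shares the promoter shown above with Psmb9. It had 9.86 and 9.49 in Conv and 8.66 and 8.72 in FAF, a ratio of -0.99 ± 0.21. Tap2, the other chain, gave -0.37 ± 0.20. The genes of the class I molecules themselves, B2m and H2-K1, gave 0.13 ± 0.11 and 0.24 ± 0.05. Of 8 genes that lie beside Psmb8 and Psmb9, 6 were measured and 3 were lower by the looser rule, H2-DMb1 at -1.55 ± 0.11, H2-DMa at -1.38 ± 0.02 and Tap1. H2-DMa and H2-DMb1 encode the molecule that loads peptides on MHC class II. Their neighbours Brd2 and H2-Oa gave -0.0092 ± 0.08 and 0.10 ± 0.15.

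Of 17 genes of interferon signalling, 16 were measured, with a median of -0.12, 4 lower and 1 higher by the looser rule. Among the lower were Ciita, the master regulator of MHC class II, at -0.97 ± 0.07, the interferon-induced feedback inhibitor Socs1 at -0.90 ± 0.01 and Ifng, the gene of interferon gamma. The brighter probe of Ifng was not well above background in FAF, so it gives a bound only, at least 1.59-fold lower on that probe, taken against its own FAF signal. The other probe of Ifng gave a ratio of -0.34, short of the looser rule. The higher was the kinase Jak2, at 0.66 ± 0.01, or 1.58-fold higher, with 0.27 on its other probe. Irf1, a transcription factor that induces the immune subunits, gave -0.38 ± 0.07, with -0.18 on its other probe, and the receptor chain Ifngr2 gave 0.48 ± 0.03. Averaged over probes, or read from the dimmest probe, 2 genes of this list were lower and 0 higher.

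**Figure D4:**
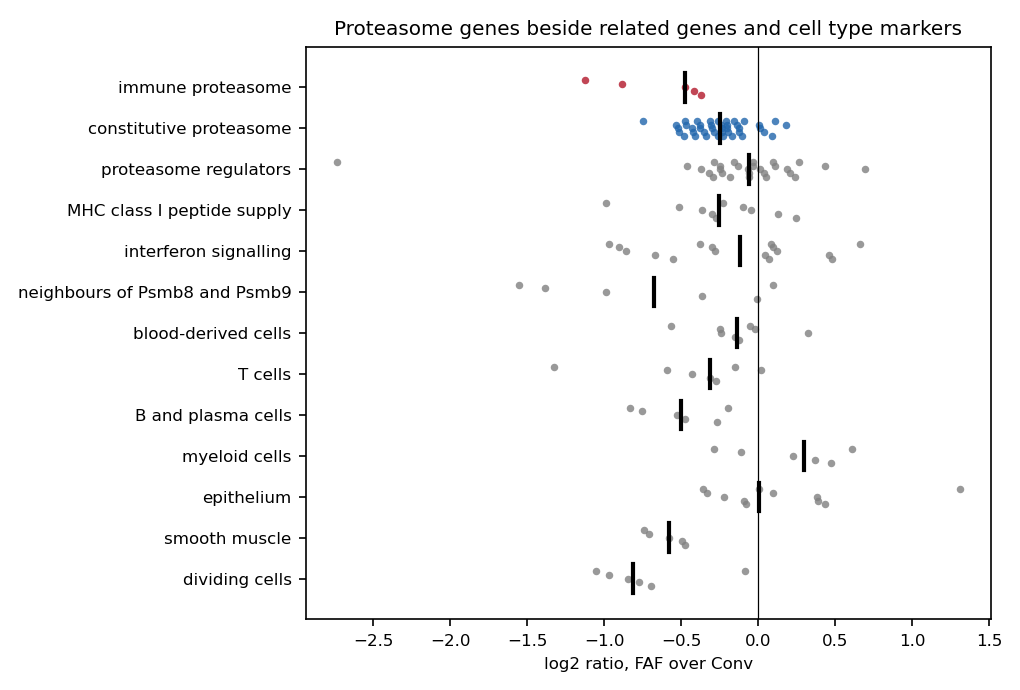
Log2 ratio of FAF over Conv of each measured gene (dots) in the immune and constitutive proteasome sets, in lists of related genes and in lists of cell type markers, with a bar for each median. Points are spread vertically so that they do not overlap. The immune proteasome median is -0.48 and the constitutive median -0.25, and the lists for dividing cells, smooth muscle, and B and plasma cells have medians of -0.81, -0.58 and -0.50.

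Markers of several cell types also had a lower signal in FAF. For T cells, 7 of 9 markers were measured (Cd4 and Trac were not), with a median of -0.31, and 6 of the 7 lay under 0 on both arrays. By the looser rule 2 were lower, Cd8b1 at -1.33 ± 0.08 and Cd3d at -0.59 ± 0.05. The other CD8 chain, Cd8a, gave -0.27 ± 0.12. Cd3e gave 0.02 ± 0.10, with opposite signs on the arrays (0.11 and -0.08). The summed intensity of the measured T cell markers was 2758 and 3059 in Conv and 2092 and 2051 in FAF. For B and plasma cells, 6 of 7 were measured (Cd79a was not), with a median of -0.50 and 2 lower by the looser rule (Cd79b and Mzb1). Their summed intensity was 75889 and 74753 in Conv and 59402 and 48222 in FAF. This sum was set mostly by the probe of Jchain, which gave -0.48 ± 0.16 and passed neither rule. That probe had 16.06 and 16.04 in Conv, where the next brightest marker of this list, Mzb1, had 11.66 and 11.56. For blood-derived cells as a whole, 8 of 8 were measured, with a median of -0.13, 0 past the looser rule in either direction and a summed intensity of 14903 and 15393 in Conv and 12274 and 12540 in FAF. Ptprc, the marker that all of these cells carry, was at 0.33 ± 0.11 on its brightest probe, and its 4 measured probes ranged from -0.022 to 0.33. Myeloid markers, 6 of 6 measured, had a median of 0.30, with Csf1r at 0.61 ± 0.04 (its 3 probes ranged from 0.13 to 0.61), and their summed intensity was 49096 and 51501 in Conv and 43488 and 42284 in FAF. Their median and their sum thus differed in sign, the sum being set mostly by the probe of Lyz2, at -0.29 ± 0.05. That probe had 15.49 and 15.56 in Conv, where the next brightest myeloid marker, Csf1r, had 10.07 and 10.07. Which cells gave the Lyz2 signal was not tested.

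Genes of dividing cells were lower, with 5 of 6 past the looser rule, from Ccnb1 at -1.05 ± 0.11 to Mcm5 at -0.69 ± 0.07, and Pcna at -0.09 ± 0.19. Their summed intensity was 19841 and 21618 in Conv and 15004 and 15176 in FAF. All 5 smooth muscle markers were under 0 on both arrays, 2 of them past the looser rule, and their summed intensity was 88849 and 80356 in Conv and 56056 and 56684 in FAF. The 11 epithelial markers had a median of 0.0033, with 4 above 0 on both arrays and 3 under 0 on both. The highest was Alpi, the alkaline phosphatase of the villus, at 1.31 ± 0.10 (0.93 on its other probe). The lowest were Krt18 at -0.36 ± 0.05 and Krt19 at -0.33 ± 0.13. The summed intensity of the epithelial markers was 557080 and 652752 in Conv and 675612 and 623447 in FAF. This sum was higher in FAF on the array with FAF in Cy5 and lower on the array with FAF in Cy3. The part of these cell types in the lower signal of the immune and constitutive proteasome genes was not tested.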

How the data were processed

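The deposited scanner files hold each spot's intensity per dye on a linear scale, with local background. Per the file headers they were made with Agilent Feature Extraction 11.5.1.1. The authors' files include the software's log10 ratio (Cy5 over Cy3), corrected for background and dye, and the series' deposited value table repeats it to within 4.99e-08. Probe positions are in build mm9, per the file headers.

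From the intensities, log2 ratios were computed with limma 3.58.1 in R 4.3.3: normexp background correction (offset 50), loess within each array with control spots at weight 0, the sign turned by the labelled dyes so that FAF is over Conv, and the mean of both arrays. Loess removes the dye trend over intensity, and the dye swap cancels what remains in the mean. Levels of single channels were also quantile scaled (Aquantile). Control spots and outlier-flagged spots were left out. None of the members' spots was saturated or outlier-flagged. A gene is its measured probe of highest mean intensity. Of the members' 79 probes, 68 had an accession in the RefSeq table (GRCm38.p6), and 40 of the 48 measured members had a promoter window there. Sequences were compared with Biopython 1.88. Precision is limited by the 2 arrays and 1 RNA sample per diet. Since the labels carry the same 2 RNA codes on each array, the arrays were taken as a technical dye swap.

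Named genes were all immune members, Psmb5, Psmb6 and Psmb7, members past either rule of size, the 2 highest and 2 lowest of each sub-complex, and in each related list those past a rule (up to 6) or else the 2 of largest absolute ratio. Other members are given by their ratio, and the other related genes and markers named were chosen after their values were seen. The members and lists were chosen with earlier results of these data known. The values of 1 gene in the related lists are not reported here. The steps were tested on simulated data. The alternatives were 12 settings of background, normalisation, filter, probe choice and array.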

Additional observations from a re-analysis of the deposited data

How the results depend on the processing

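No paired analysis was possible because each diet has 1 RNA sample. Under the 12 alternatives no member that passed a rule of size, no difference between an immune subunit and its partner and no class median changed its direction, apart from the median of Psme3, Psme4 and Psmf1, which lay between -0.05 and 0.09. The immune median stayed between -0.65 and -0.36 and the constitutive median between -0.28 and -0.20. With only the array that had FAF in Cy5, 6 members passed the looser rule as lower, the immune minus constitutive difference was -0.085, Psmb8 minus Psmb5 was -0.27, and 2 genes of MHC class I supply were lower and 2 of interferon signalling higher. With only the array that had FAF in Cy3, the immune median was -0.65, the immune minus constitutive difference -0.41 and Psmb8 minus Psmb5 -0.53. With median centring in place of loess the dye trend stays in each array, so 0 members passed the strict rule, 0 proteasome regulators were higher, and Psmb9 (-1.09, with -0.28 and -1.90 on the arrays) and Psmg3 (-0.69, with 0.01 and -1.39) each failed a rule they otherwise passed. With the mean over probes and with the dimmest probe, interferon signalling had 0 genes higher and 2 lower. On the dimmest probe Psma7, Psmc2 and Psmd4 were at 0.07, 0.11 and 0.08. With the constitutive set cut to 31 subunits, chosen after seeing the data, the difference was -0.19. Over members and settings, 547 of the single-gene values held their call and, where none was called, their size within the technical SD of 1 array (0.12), 19 moved, 8 newly passed a rule and 2 no longer passed one. Not all of these settings moved a value. Asking for signal above background in both diets, dropping the filter on dim probes and keeping outlier-flagged spots left each measured member's ratio unchanged. The deposited value table repeats the software's log ratio, so the 12 settings are not 12 separate checks. Signal over background limits Psma8, whose ratio was 0.37 with an offset of 10 and 0.50 in the software's log ratio.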
